A study of Homo sapiens with 6 samples.

Results

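The comparison described here is between 2 sorted populations of HCC70, a human cell line from a basal-like breast cancer that lacks hormone receptors: cells positive for keratin 18 and vimentin (K18+Vim+) and cells positive for keratin 18 alone (K18+). A population positive for keratin 18 and keratin 14 (K18+K14+) of the same line served as the third library, to tell whether a difference belonged to the K18+Vim+ side or to the K18+ side. The members are the 11721 genes, of 18802 in the table, whose mean over the 3 HCC70 libraries was at least 1 FPKM (fragments sequenced, divided by transcript length and by the total of the library). These 3 libraries are among 6 in the series, and the libraries of MDA-MB-468, the other line, were not used here. All 3 populations came from cultures of 1 line, with no treatment named in the labels, that were detached with trypsin, fixed and permeabilized in methanol, stained with antibodies and separated by flow cytometry, per the labels' protocols, and RNA was recovered from the fixed cells. How pure each gate was is not given in the sources used here. Each population is 1 library, so nothing below has a replicate check and no p-value is given. Ratios are log2 differences of FPKM + 1, which understates the differences of genes with low values, and a value of 1 or -1 is called 2-fold. Values of a gene are listed in the order K18+, K18+K14+, K18+Vim+.

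Keratins and vimentin are the subunits of intermediate filaments, the stable part of the cytoskeleton. Keratin 18 pairs with keratin 8 in the simple epithelium that lines ducts, keratin 14 pairs with keratin 5 in the basal layer, and vimentin forms the filaments of fibroblasts and other mesenchymal cells. Carcinoma cells that carry vimentin beside keratin are often discussed in terms of the epithelial-mesenchymal transition, a programme in which transcription factors of the SNAI, ZEB and TWIST families lower junction genes and raise matrix and contractile genes. In cultures of basal-like breast cancer, cells with different filament types occur side by side.

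The RNA of the sort antigens was read first, as a check of the labels. VIM stood at 13.4, 11.1 and 54.8 FPKM, so the K18+Vim+ library was the highest, with a log2 ratio of 1.96 to K18+ and 2.20 to K18+K14+. KRT18, the antigen all 3 populations share, stood at 158, 174 and 216 FPKM (log2 ratio 0.45 to K18+). KRT14 stood at 15.3, 48.6 and 5.76 FPKM, highest in the population sorted for it and lowest in K18+Vim+. VIM RNA was therefore present in all 3 libraries, and a smaller number of vimentin-expressing cells in a gate and less RNA per cell cannot be told apart in such bulk values. Epithelial markers were high everywhere: EPCAM, CDH1, KRT8, KRT18 and KRT19 all passed the filter, and their FPKM summed to 1247, 1497 and 1343. Of 8 fibroblast markers, COL1A1 alone passed the filter, their sums were 10.1, 7.11 and 11.02 FPKM, and 2 were at the floor of 0.1 FPKM in all 3 libraries. Among 11 immune cell markers CD68 alone passed, with sums of 8.77, 8.09 and 8.54 FPKM and 4 markers at the floor throughout. No endothelial marker of 6 and no erythroid marker of 4 passed.

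The 3 libraries were alike in scale but not in composition. Summed FPKM was 489802 to 507831, the 100 highest genes held 22.5% to 23.9% of it, and Pearson correlations between libraries over the log values of the 11721 genes were 0.961 to 0.974. The ratio to K18+ depended on the base composition of the transcript. With genes put into 5 equal groups by GC content, the median log2 ratio of K18+Vim+ to K18+ was -0.46 in the lowest group (31.7% to 41.9% GC) and 0.14 in the highest (59.1% to 74.7%). Across 11673 genes with a known sequence, Spearman's rho between GC content and the ratio was 0.469 for K18+Vim+ to K18+ and 0.530 for K18+K14+ to K18+, which share the K18+ library. It was -0.015 for K18+Vim+ to K18+K14+. The K18+ library thus stood apart from both others on this measure, whose part in the differences between populations was not tested. A GC-corrected ratio, from which the median of genes of like GC content has been subtracted, is given beside results below.

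**Figure D1:**
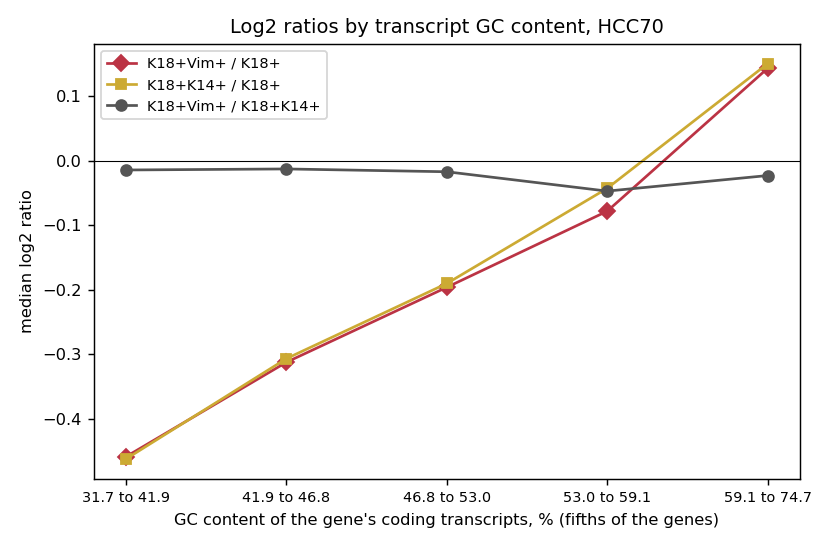
Median log2 ratio (y axis) by GC content of the coding transcripts in percent (x axis, 5 equal groups of genes), for 3 pairs of HCC70 libraries. Both ratios to K18+ climb from about the same low value to above 0 with GC content, from -0.46 to 0.14 for K18+Vim+, while K18+Vim+ to K18+K14+ stays near 0.

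Most genes differed little between K18+Vim+ and K18+. The median log2 ratio was -0.18, the central range from the 5th to the 95th percentile was -0.91 to 0.63, and 94.6% of genes lay within 2-fold. At least 2-fold higher in K18+Vim+ were 206 genes (1.76% of those that passed the filter) and at least 2-fold lower were 426 (3.63%). Past 4-fold were 14 higher (0.119%) and 26 lower (0.222%). The excess of lower genes did not hold under other scalings: higher genes were 32.6% of those past 2-fold, but 58.0% after quantile normalization, 60.9% after centring on the median and 63.7% after GC correction. Low genes made up much of the higher side. Of genes with a mean of 1 to 5 FPKM 3.06% were past 2-fold higher, against 0.888% of those at 100 FPKM or more. The lower side also depended on level: 4.14% of genes at 1 to 5 FPKM and 4.58% at 5 to 20 FPKM were past 2-fold lower. At 100 FPKM or more 0.888% were.

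The third library placed these differences. K18+Vim+ was at least 2-fold above both other libraries for 134 genes (1.14%) and at least 2-fold below both for 142 (1.21%). K18+ stood alone, at least 2-fold below both others, for 15 genes (0.128%) and at least 2-fold above both for 68 (0.580%). Of the 206 genes higher in K18+Vim+ than in K18+, 65.0% were also past 2-fold against K18+K14+, and of the 426 lower genes 33.3% were. On this scale the lower side held many genes whose value in K18+K14+ was between the 2 others: 218 of the 426 were past 2-fold in neither step, and 58 of the 206 on the higher side. The contrast between the sides depended on the scaling. After centring on the median, 172 of 339 higher genes and 109 of 218 lower genes were also past 2-fold against K18+K14+. After GC correction 157 of 283 and 108 of 161 were. For comparison, K18+K14+ to K18+ gave 93 higher (0.793%) and 290 lower genes (2.47%), and K18+Vim+ to K18+K14+ gave 375 higher (3.20%) and 311 lower (2.65%). These 3 comparisons share their libraries and are not independent.

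**Figure D2:**
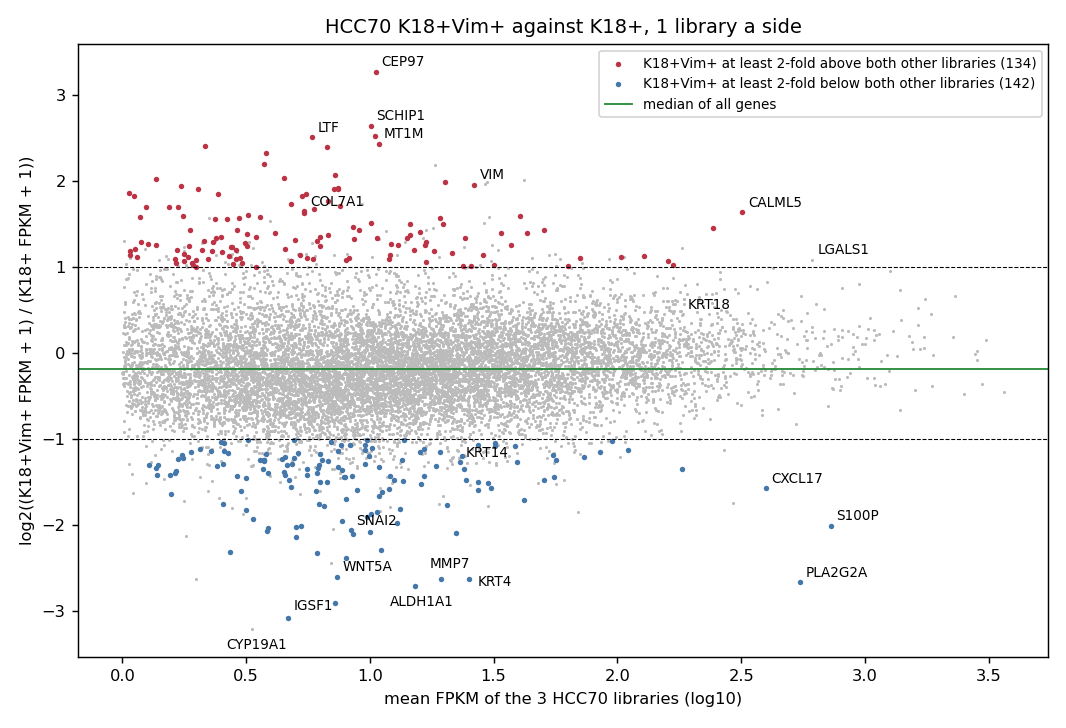
Log2 ratio of K18+Vim+ to K18+ (y axis, FPKM + 1) against the mean FPKM of the 3 HCC70 libraries (x axis, log10) for 11721 genes, 1 library a side. Coloured points are the 134 genes where K18+Vim+ was at least 2-fold above both other libraries and the 142 where it was at least 2-fold below both; dashed lines mark 2-fold and the green line the median of -0.18.

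Among genes highest in K18+Vim+, CEP97 had the largest ratio. It encodes a centriole-capping protein that restrains the growth of cilia, and it stood at 2.06, 1.07 and 28.5 FPKM (log2 ratio 3.27). SCHIP1, whose product binds the tumour suppressor schwannomin, stood at 3.39, 0.35 and 26.5 FPKM (log2 ratio 2.65). K18+Vim+ was far above both other libraries for these genes, and for both the K18+K14+ library was the lowest. LTF, the iron-binding secreted protein lactoferrin, stood at 1.82, 0.72 and 15.03 FPKM (log2 ratio 2.51). ELOVL6, a fatty acid elongase, stood at 2.81, 7.82 and 20.8 FPKM (log2 ratio 2.52), with K18+K14+ between the others.

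Other genes with large ratios in this group had varied roles. MAP4K1, a kinase best known from blood cells, stood at 2.10, 2.64 and 15.3 FPKM (log2 ratio 2.39), and BATF3, a transcription factor of the AP-1 family, at 1.58, 2.22 and 9.64 FPKM (log2 ratio 2.04). RGL3, an exchange factor for Ral GTPases, stood at 11.1, 2.14 and 47.1 FPKM (log2 ratio 1.99), which made it one of the more abundant of the leaders. TDRP (0.33, 0.1 and 6.04 FPKM), ANKRD18B (0.1, 0.53 and 3.46) and SLC9A2, a sodium-proton exchanger (0.44, 0.20 and 4.54), were under 1 FPKM in both other libraries, so they passed the filter through K18+Vim+. OVCH2 stood at 0.95, 1.62 and 8.81 FPKM. RTN4IP1, a mitochondrial reductase, stood at 2.67, 4.60 and 14.5 FPKM.

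Among genes past 2-fold higher, some of the largest differences in FPKM belonged to abundant genes. LGALS1, the sugar-binding protein galectin-1, stood at 434, 474 and 925 FPKM. CALML5, a calcium-binding protein of skin, stood at 179.5, 220.2 and 560 FPKM (log2 ratio 1.64). For these genes the other libraries were close to each other and K18+Vim+ was the highest. TCEA2, a transcription elongation factor, stood at 129.8, 74.4 and 274 FPKM. SAMM50, which helps to assemble the outer mitochondrial membrane, showed another pattern, at 96.6, 225 and 227 FPKM, with K18+ standing alone.

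**Figure D3:**
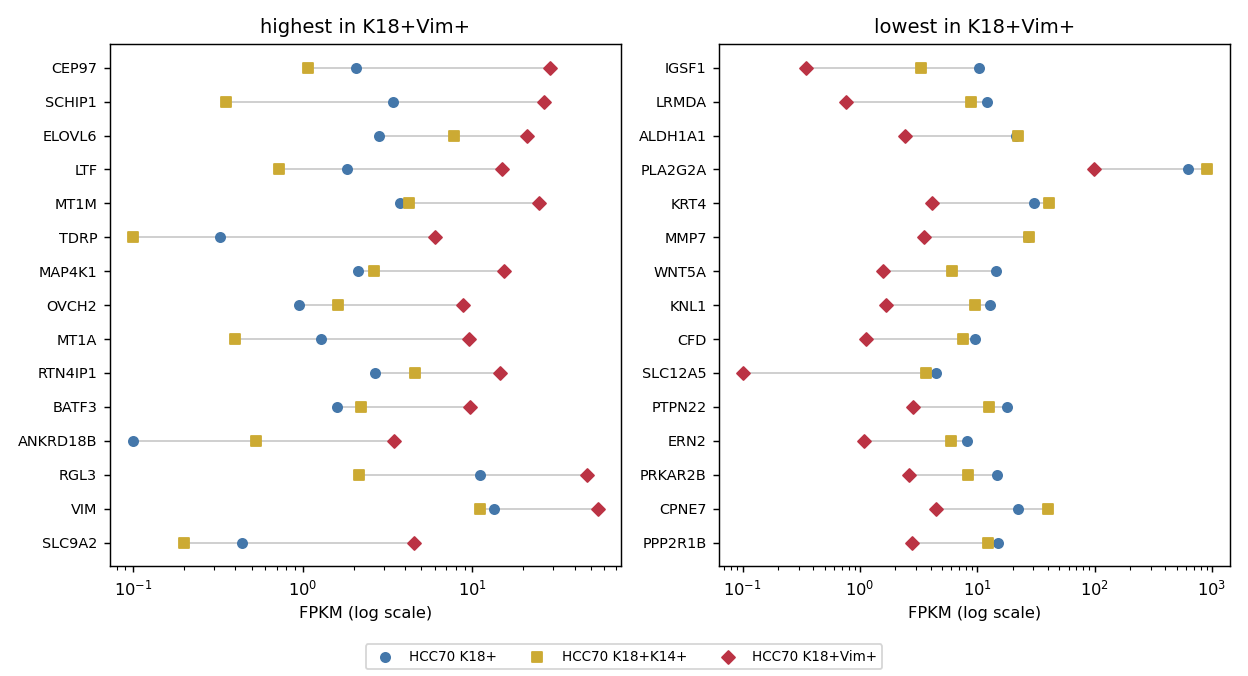
FPKM (x axis, log scale) in the 3 HCC70 libraries of genes past 2-fold against both other libraries, the 15 in each direction with the largest ratio of K18+Vim+ to K18+. Each point is 1 library; VIM is at 54.8 FPKM in K18+Vim+ against 13.4 and 11.1, and PLA2G2A at 98.6 against 628 and 911.

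Among genes at least 2-fold below both other libraries, the most abundant of the 15 largest ratios was PLA2G2A, a secreted phospholipase, at 628, 911 and 98.6 FPKM (log2 ratio -2.66). ALDH1A1, an enzyme of retinoic acid synthesis that is also used as a stem cell marker in breast, stood at 21.2, 22.2 and 2.42 FPKM (log2 ratio -2.70). MMP7, the matrix protease matrilysin, stood at 26.9, 27.6 and 3.53 FPKM (log2 ratio -2.62). K18+Vim+ was the lowest library for these genes, and the other libraries were close to each other for ALDH1A1 and MMP7, while K18+K14+ was above K18+ for PLA2G2A. WNT5A, a ligand of non-canonical Wnt signalling, was graded instead, at 14.5, 6.03 and 1.56 FPKM (log2 ratio -2.60). CFD, complement factor D, stood at 9.63, 7.54 and 1.13 FPKM. The largest ratio in this group belonged to IGSF1, a membrane glycoprotein, at 10.3, 3.28 and 0.35 FPKM (log2 ratio -3.07), followed by LRMDA at 12.1, 8.79 and 0.76 FPKM (log2 ratio -2.90).

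Intracellular genes were in this group too. KNL1, a scaffold of the kinetochore, stood at 12.9, 9.59 and 1.66 FPKM (log2 ratio -2.38). PTPN22, a tyrosine phosphatase, stood at 17.7, 12.6 and 2.85 FPKM, and PRKAR2B, a regulatory subunit of protein kinase A, at 14.6, 8.37 and 2.64 FPKM. ERN2, the endoplasmic reticulum stress sensor of mucosal epithelium, stood at 8.09, 5.93 and 1.07 FPKM, and CPNE7, a copine, at 22.1, 40.01 and 4.45 FPKM. PPP2R1B, a scaffold subunit of protein phosphatase 2A, stood at 15.1, 12.3 and 2.79 FPKM, and SLC12A5, a potassium-chloride cotransporter, at 4.43, 3.64 and the floor of 0.1 FPKM.

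A smaller group set K18+ apart from both other populations. CYP19A1, the aromatase that makes oestrogen, stood at 9.67 FPKM in K18+ and at 0.158 in each of the others (log2 ratio -3.20). GIPR, the receptor of an intestinal hormone, stood at 15.1, 3.91 and 1.96 FPKM, and OMA1, a mitochondrial protease, at 588, 117 and 175 FPKM. Oestrogen receptor ESR1 followed the same order, at 4.15, 0.62 and 0.57 FPKM (log2 ratio -1.71). In the other direction, TPRN stood at 7.79, 47.4 and 33.9 FPKM (log2 ratio 1.99), and SLC5A2, a glucose transporter, at 0.1, 4.32 and 2.28 FPKM. For each of these K18+Vim+ and K18+K14+ lay on the same side of K18+. Close to the 2-fold line, LRRC69 (2.95, 0.47 and 6.92 FPKM) and HIPK3 (4.41, 1.60 and 1.70 FPKM) were just inside, and SYNE4 (16.8, 29.3 and 34.4 FPKM) and SOCS5 (5.28, 2.71 and 2.14 FPKM) just outside.

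Genes of the extracellular matrix leaned to K18+Vim+. Of 32 measured collagens, laminins and cross-linking enzymes, 7 were past 2-fold higher and none lower (background 1.76% and 3.63%), 6 of the 7 were above both libraries, and 27 were above the median of all genes (background 50.0%). The list's median log2 ratio was 0.19 against -0.18 over all genes, and 0.29 after GC correction. Against K18+K14+, which leaves out the library that stood apart in GC content, it was 0.34 (all genes -0.02). COL7A1, which forms the anchoring fibrils of the basement membrane, stood at 3.16, 1.10 and 12.1 FPKM (log2 ratio 1.65). COL5A1, a chain that regulates fibril width, stood at 8.08, 1.995 and 21.9 FPKM (log2 ratio 1.33), and COL16A1, a fibril-associated collagen, at 2.48, 1.80 and 8.14 FPKM (log2 ratio 1.40). In each of these K18+Vim+ was the highest library and K18+K14+ the lowest. COL12A1 (0.43, 0.53 and 2.27 FPKM) and COL6A1 (0.22, 0.82 and 2.02 FPKM) passed the filter through K18+Vim+ and rest on low values. The background shares for the counts of every list below are the same: 1.76% of all genes past 2-fold higher, 3.63% lower, 1.14% above both libraries and 1.21% below both.

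Of 13 collagen processing enzymes measured, 2 were past 2-fold higher and none lower, and 1 was below the median of all genes (background 50.0%). Their median log2 ratio was 0.13, and 0.38 after GC correction. LOXL1, a lysyl oxidase that cross-links elastin, stood at 2.37, 2.99 and 11.2 FPKM (log2 ratio 1.85), and PCOLCE2, an enhancer of procollagen cleavage, at 1.46, 1.08 and 6.32 FPKM (log2 ratio 1.58). LOX itself stood at 2.37, 1.82 and 2.10 FPKM. Of 8 laminin chains measured none was past 2-fold, with log2 ratios from -0.77 for LAMA3 to 0.88 for LAMB1. COL1A1, the main collagen of fibroblasts, stood at 7.56, 6.07 and 9.10 FPKM (log2 ratio 0.24), and COL3A1 was at the floor in all libraries. Among 28 integrin and focal adhesion genes 2 were higher and none lower: ITGA2B, the platelet integrin chain, at 3.69, 4.196 and 10.998 FPKM, and TNS1, an actin linker, at 4.18, 3.40 and 10.1 FPKM. FLNA, which cross-links actin, stood at 290.1, 397 and 516 FPKM (log2 ratio 0.83).

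Beyond VIM, few mesenchymal genes were past 2-fold higher. Of 40 genes in the list, 17 passed the filter, with 2 past 2-fold higher (11.8%, background 1.76%) and 3 lower (17.6%, background 3.63%). The median log2 ratio was 0.01 against -0.18 over all genes, and 0.16 after GC correction. Of the 17, 12 were above the median of all genes (background 50.0%). Higher were VIM and CALD1, an actin regulator of contractile cells, at 1.55, 0.32 and 4.11 FPKM, which passed the filter through K18+Vim+. VIM is the antigen for which K18+Vim+ was sorted. The share of 11.8% is therefore not independent of the sort and the filter, and VIM is also 1 of the 12 above the median. Lower were WNT5A, S100A4 and SNAI2. SNAI2, a transcription factor of the transition, stood at 13.5, 9.23 and 2.48 FPKM (log2 ratio -2.06), opposite to VIM in direction and below both other libraries. S100A4, a calcium-binding protein also called fibroblast-specific protein, stood at 39.2, 58.7 and 18.1 FPKM (log2 ratio -1.07). SNAI1 stood at 5.40, 2.82 and 7.60 FPKM (log2 ratio 0.43). ZEB1 was below the filter at 0.51, 0.53 and 1.51 FPKM, and TWIST1, TWIST2 and CDH2, the cadherin of mesenchymal cells, were at the floor throughout. FN1, fibronectin, stood at 50.1, 10.3 and 81.6 FPKM, a log2 ratio of 0.69 to K18+ and of 2.87 to K18+K14+.

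Some basal genes were lower in K18+Vim+, but the list as a whole was not. Of 27 basal and myoepithelial genes measured, 6 were past 2-fold lower (22.2%, background 3.63%) and 1 higher, 5 of the 6 were below both libraries (background 1.21%), and 14 of 27 were above the median of all genes. KRT14, for which K18+K14+ was sorted, is 1 of those 5, so its place below that library is not independent of the sort. The median of the list was -0.16, near that of all genes, and -0.06 after GC correction. KRT5, the partner of keratin 14, stood at 221, 308 and 110.0 FPKM, just short of 2-fold. KRT16, a stress keratin, stood at 164.5, 447 and 96.1 FPKM, and KRT6A at 2.37, 6.07 and 0.25 FPKM (log2 ratio -1.43). Over the 7 basal keratins that passed the filter, KRT14 among them, the median log2 ratio to K18+ was -0.77 in K18+Vim+ and 1.26 in K18+K14+. KRT17 did not share this order, at 38.0, 92.7 and 45.6 FPKM. Caveolins, coat proteins of plasma membrane pits, were both lower: CAV2 stood at 46.3, 31.6 and 15.04 FPKM (log2 ratio -1.56) and CAV1 at 16.99, 12.5 and 7.84 FPKM (log2 ratio -1.03). MIA stood at 11.5, 31.7 and 4.63 FPKM. MYLK, the myosin light chain kinase, was the higher gene, at 1.47, 0.90 and 4.30 FPKM. The 4 simple keratins were above the median of all genes without reaching 2-fold: KRT8 stood at 139.6, 169 and 212 FPKM and KRT7 at 1240, 2103 and 1923 FPKM.

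Secretory genes of mucosal epithelium had more members past 2-fold lower than any other of the lists. Of 34 measured, 10 were lower (29.4%, background 3.63%) and 3 higher (8.82%, background 1.76%), 8 of the 10 were below both libraries (background 1.21%), and the median log2 ratio was -0.54 (-0.30 after GC correction, and -0.45 against K18+K14+). S100P, a calcium-binding protein of mucosa and carcinoma, stood at 863, 1105 and 214 FPKM (log2 ratio -2.01). KRT4, the keratin of moist stratified epithelium, stood at 30.4, 40.7 and 4.09 FPKM (log2 ratio -2.62), and AQP3, a water and glycerol channel, at 7.96, 5.89 and 1.21 FPKM (log2 ratio -2.02). K18+Vim+ was the lowest library for each of these. CEACAM6, an adhesion molecule, stood at 28.96, 32.2 and 10.8 FPKM. The chemokine CXCL17, outside the list, stood at 446, 595 and 149.5 FPKM (log2 ratio -1.57). Abundant members were not alike: beside PLA2G2A and S100P, which were past 4-fold lower, SLPI, a protease inhibitor, stood at 1298, 2052 and 822 FPKM, LCN2 at 708, 1138 and 542.5 FPKM, and MUC1 at 914, 1076 and 1108 FPKM.

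Some members of that list were higher in K18+Vim+. Beside LTF, PIGR, the receptor that carries antibodies across epithelium, stood at 0.32, 0.25 and 2.96 FPKM, passing the filter through K18+Vim+, and CST6, a cystatin, at 1.82, 1.56 and 7.45 FPKM. CFB, complement factor B, stood at 134, 97.3 and 228 FPKM (log2 ratio 0.76), and C3 at 1072, 1105 and 1253 FPKM. The list thus held genes at both ends of the ranking.

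Kallikreins, proteases that act in the shedding of skin cells, were lowest in K18+Vim+ and highest in K18+K14+ for all 5 that passed the filter (KLK5, KLK6, KLK7, KLK8 and KLK10). KLK8 stood at 15.9, 61.4 and 5.02 FPKM (log2 ratio -1.49), and PI3, the elastase inhibitor elafin, at 119, 384 and 46.2 FPKM (log2 ratio -1.34). SERPINB2, an inhibitor of plasminogen activators, stood at 9.64, 11.7 and 1.75 FPKM (log2 ratio -1.95). Of 25 serpin, urokinase and kallikrein genes 4 were lower and 1 was higher, SERPINA1, at 1.70, 1.83 and 6.03 FPKM. Among 19 keratinocyte differentiation genes 3 were lower and CALML5 was higher, with a median log2 ratio of -0.38 (-0.27 after GC correction).

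Some enzymes of cholesterol synthesis were lower in K18+Vim+, and most of the pathway lay below the median of all genes. Cells make cholesterol from acetyl-CoA through mevalonate and squalene, and the transcription factor SREBF2 drives most of its enzymes when sterol is short. Of 21 pathway enzymes, all of which passed the filter, 5 were past 2-fold lower (background 3.63%) and none higher, and 19 were below the median of all genes (background 50.0%). None of the 5 was also 2-fold below K18+K14+. Their median log2 ratio was -0.58 to K18+, and -0.42 after GC correction, with 20 of 21 below 0. Against K18+K14+ the GC-corrected median was -0.38. HMGCS1, at the entry to mevalonate, stood at 28.5, 23.3 and 11.5 FPKM (log2 ratio -1.24). SQLE, the epoxidase that opens the sterol branch, had the largest ratio, at 72.3, 45.9 and 24.7 FPKM (log2 ratio -1.51). After it, CYP51A1 stood at 38.6, 26.9 and 17.3 FPKM, MSMO1 at 97.9, 86.3 and 47.0 FPKM, and SC5D at 26.9, 12.8 and 12.6 FPKM. After GC correction SQLE alone of these 5 kept 2-fold (-1.25), while HMGCS1 was at -0.80, CYP51A1 at -0.67, MSMO1 at -0.58 and SC5D at -0.55.

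INSIG1, which holds SREBF2 in the endoplasmic reticulum, was just short of 2-fold lower, at 32.9, 34.2 and 16.8 FPKM (log2 ratio -0.93). Among fatty acid genes FASN stood at 151, 210.1 and 115 FPKM and SCD at 54.3, 57.9 and 34.8 FPKM, against the higher ELOVL6 given above. In K18+K14+ the same enzymes had a median log2 ratio to K18+ of -0.18, near that of all genes (-0.16).

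Glucose metabolism held differences at single steps. Of 38 hypoxia and glycolysis genes 4 were higher (10.5%, background 1.76%) and 2 lower (5.26%, near the background of 3.63%). PFKP and PFKM, subunits of phosphofructokinase, stood at 54.3, 39.4 and 118 FPKM and at 13.3, 8.51 and 28.7 FPKM (log2 ratios 1.10 and 1.06). SLC16A3, the lactate exporter, stood at 22.4, 18.3 and 60.6 FPKM (log2 ratio 1.39), and CA9, a carbonic anhydrase induced by hypoxia, at 61.5, 83.1 and 132 FPKM (log2 ratio 1.09). The lactate dehydrogenase LDHB was lower, at 8.15, 14.1 and 1.84 FPKM (log2 ratio -1.69), as was HIF1A, at 78.8, 50.9 and 38.3 FPKM. VEGFA, a classic target of HIF1A, stood at 283, 286 and 202 FPKM, and of 17 glycolytic enzymes 2 were higher and 1 was lower, with ENO1, for example, at 805, 845 and 776 FPKM.

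Junction genes were present in all 3 libraries. All 47 genes of the list passed the filter, 4 were lower and 1 higher, and the median log2 ratio was -0.26 (-0.17 after GC correction, and 0.00 against K18+K14+). CDH1, the cadherin of epithelium, stood at 53.3, 38.2 and 33.1 FPKM (log2 ratio -0.67). DSG3, a desmosomal cadherin of basal cells, stood at 4.98, 4.65 and 1.53 FPKM (log2 ratio -1.24), and KLF5, an epithelial transcription factor, at 44.0, 17.3 and 14.6 FPKM (log2 ratio -1.53), the latter with K18+K14+ at the level of K18+Vim+. CLDN3 was the higher one, at 19.3, 26.2 and 47.6 FPKM, while CLDN8 and CLDN12 were lower than in K18+. Against K18+K14+ the log2 ratios of CLDN8 and CLDN12 were -0.37 and -0.06. After GC correction KLF5 alone of these 5 kept 2-fold against K18+ (-1.19). DSG3 was then at -0.91, CLDN3 at 0.92, CLDN8 at -0.64 and CLDN12 at -0.65. Among luminal genes, FOXA1, a pioneer factor of hormone-responsive cells, stood at 16.96, 13.8 and 6.88 FPKM (log2 ratio -1.19), and GATA3 at 21.6, 19.6 and 30.3 FPKM (log2 ratio 0.47).

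Stem cell markers as a set leaned low in K18+Vim+. Of 23 measured, 16 were below the median of all genes (background 50.0%). Past 2-fold were 2 lower (8.70%, background 3.63%) and 1 higher (4.35%, background 1.76%). The median log2 ratio was -0.38, and -0.15 after GC correction. Against K18+K14+ it was -0.17 (all genes -0.02). Beside ALDH1A1, the adhesion molecule ALCAM was lower, at 30.2, 22.9 and 8.23 FPKM (log2 ratio -1.76). CD44 stood at 158, 145 and 129 FPKM and PROM1 at 54.2, 60.6 and 30.9 FPKM. BCL11A was the higher member of the 23 measured, at 0.35, 1.23 and 2.11 FPKM, and passed the filter through K18+Vim+. Growth factor genes leaned low: 18 of 22 ERBB, FGF and PDGF signalling genes were below the median of all genes and 1, EGF, was past 2-fold (7.36, 2.93 and 2.99 FPKM). EGFR, the receptor, stood at 23.3, 17.9 and 11.2 FPKM, just short of 2-fold.

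Few cell cycle genes were past 2-fold. Of 53 G1 and S phase genes 3 were lower (5.66%, near the background of 3.63%) and none higher, and 38 were below the median of all genes (background 50.0%), with a median log2 ratio of -0.35 (-0.19 after GC correction). GMNN, the inhibitor of origin licensing, stood at 92.1, 88.0 and 39.2 FPKM (log2 ratio -1.21), PRIM1, a primase subunit, at 16.5, 15.6 and 5.32 FPKM (log2 ratio -1.47), and CDKN2C, an inhibitor of CDK4, at 36.3, 23.3 and 14.4 FPKM. Of 61 G2 and M phase genes 2 were lower (3.28%) and none higher. Below the median of all genes were 42 of the 61. Their median log2 ratio to K18+ of -0.35 was -0.04 after GC correction. Against K18+K14+ the median was -0.26 (all genes -0.02), and -0.25 after GC correction.

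Genes of the division axis, which the title of the series names as a subject, were near the average of all genes. Of 39 polarity, division axis and centrosome genes 2 were higher and 1 lower, and the median log2 ratio was -0.17. NINL, which anchors microtubules at the centrosome, stood at 9.84, 1.54 and 25.1 FPKM, a log2 ratio of 1.27 to K18+ and 3.36 to K18+K14+. INSC, an adaptor between polarity and spindle proteins, stood at 1.06, 1.13 and 3.21 FPKM (log2 ratio 1.03). The centriole assembly gene SASS6 was lower, at 8.65, 4.38 and 3.03 FPKM. PARD3 and NUMB stood at 46.4, 37.9 and 55.2 FPKM and at 29.9, 22.9 and 25.4 FPKM.

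Several lists had no or few members past 2-fold. These were the 77 cytosolic ribosomal protein genes, 24 MHC genes, 28 polycomb genes, 32 unfolded protein response genes and 23 YAP and TEAD targets with none. Some of these lists still leaned to a side. Above the median of all genes (background 50.0%) were 18 of 24 MHC genes and 51 of 77 ribosomal genes. Below it were 22 of 32 unfolded protein response genes and 18 of 28 polycomb genes. The YAP and TEAD targets were near the background, with 12 of 23 above the median. After GC correction the MHC median was 0.27. Within the MHC list, class II genes that passed the filter stood above K18+K14+, and their distance from K18+ varied. HLA-DRA stood at 19.5, 3.18 and 24.7 FPKM, and CD74, the invariant chain, at 194.5, 87.8 and 267 FPKM. CIITA, the activator of class II genes, stood at 5.97, 4.30 and 10.4 FPKM (log2 ratio 0.71), and HLA-DMB, a chain of the peptide-loading chaperone, at 4.61, 2.49 and 8.87 FPKM (log2 ratio 0.82), both above the 95th percentile of all genes (0.63). Of 74 nuclear oxidative phosphorylation genes 3 were lower (4.05%, near the background of 3.63%): SDHC, SDHD and NDUFA5. After GC correction none of the 3 kept 2-fold, at -0.83, -0.85 and -0.43.

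**Figure D4:**
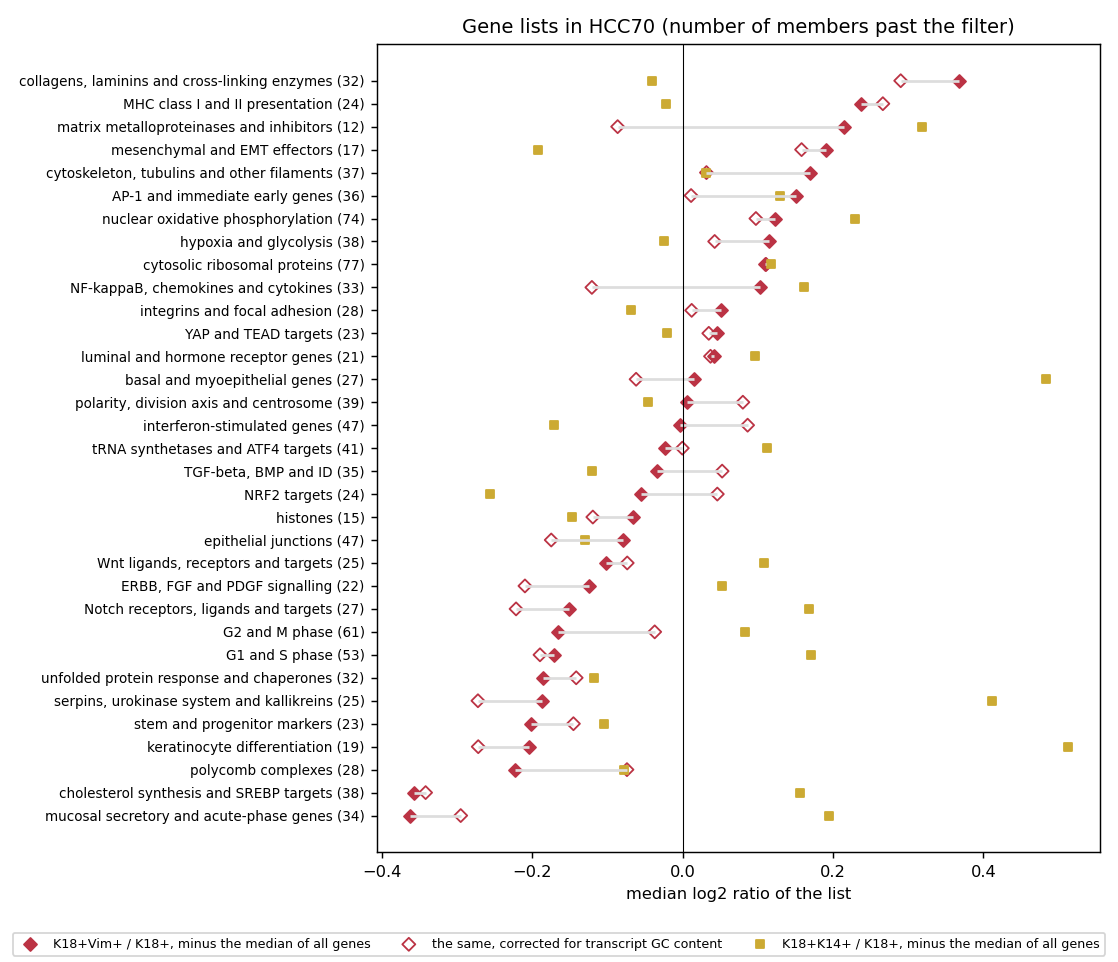
Median log2 ratio minus the median of all genes (x axis) for the gene lists with at least 10 members past the filter (y axis, number of members in brackets). Filled diamonds are K18+Vim+ to K18+, open diamonds the same after GC correction and squares K18+K14+ to K18+, which share the K18+ library; matrix genes are at the top and mucosal secretory and cholesterol genes at the bottom.

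Metallothioneins, small proteins that bind zinc and copper, were picked out after their values were seen. Of 7 that passed the filter 3 were past 2-fold higher and none lower. MT1M stood at 3.72, 4.21 and 24.6 FPKM (log2 ratio 2.44), MT1A, which passed the filter through K18+Vim+, at 1.28, 0.40 and 9.52 FPKM (log2 ratio 2.20), and MT1E at 145, 61.0 and 296 FPKM (log2 ratio 1.03). The abundant members were nearer to even: MT2A stood at 416, 338 and 529 FPKM, and MT1X at 725, 1235 and 719 FPKM. These genes are close copies of each other, and the way reads were shared between copies is not given in the sources used here. Humanin-like genes, nuclear copies of a mitochondrial ribosomal RNA, were also high, with MTRNR2L2 at 17.02, 36.96 and 71.7 FPKM and a summed level of the 9 genes of 32.9, 71.6 and 122 FPKM. They are near-identical in sequence to the mitochondrial transcript, so their values are uncertain in the same way.

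VIM lies on the short arm of chromosome 10, and its neighbours leaned the same way. Gene order was taken from the reference annotation, and the choice of this region was made after values were seen. Of the 10 measured genes on either side of VIM, from HSPA14 to DNAJC1, none was past 2-fold against K18+ before GC correction, and 14 of 20 had a log2 ratio to K18+ above 0. After GC correction 20 of 20 were above 0 (background 50.0%), with a median of 0.47 to K18+ and 0.75 to K18+K14+, and K18+K14+ to K18+ had a median of -0.19. The nearest in size was MINDY3, at 14.4, 6.13 and 29.1 FPKM. After GC correction MINDY3 (1.55) and MEIG1 (1.14) were past 2-fold against K18+, and MINDY3 (2.09) and HACD1 (1.07) against K18+K14+. VIM itself had the highest ratio of the run. Over 11350 windows of 15 neighbouring genes the central range of the median, from the 5th to the 95th percentile, was -0.24 to 0.24.

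The lean extended over the chromosome. Of 441 genes on chromosome 10, 69.8% were above 0 against K18+ and 75.1% against K18+K14+ after GC correction (background 50.0% for each), and the medians were 0.20 and 0.30. On chromosome 20, with 317 genes, the medians were 0.17 and 0.24. Chromosome 16 was lowest, at -0.11 and -0.25. Ranked by the smaller of the medians against K18+ and K18+K14+, the leading window was on chromosome 20, from RTEL1 to SOX18. There 15 of 15 genes were above 0, 5 were past 2-fold higher before correction, and the medians were 0.63 and 1.09. In it SOX18, a transcription factor of vessels, stood at 2.63, 0.67 and 11.1 FPKM, and ARFRP1 at 93.1, 86.2 and 204 FPKM. By the same ranking the lowest window was on chromosome 1, from PHTF1 to TSPAN2, with medians of -0.43 and -0.39. The low window ranked 4, on chromosome 7 from TES to WASL, held CAV1, CAV2 and 6 other genes past 2-fold lower before correction. After correction its medians were -0.49 to K18+ and -0.36 to K18+K14+. CAV2 (-1.20) and KCND2 (-1.08) alone stayed past 2-fold against K18+, with CAV1 at -0.73. Whether DNA content differed between the sorted populations was not tested, and expression alone does not give it.

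**Figure D5:**
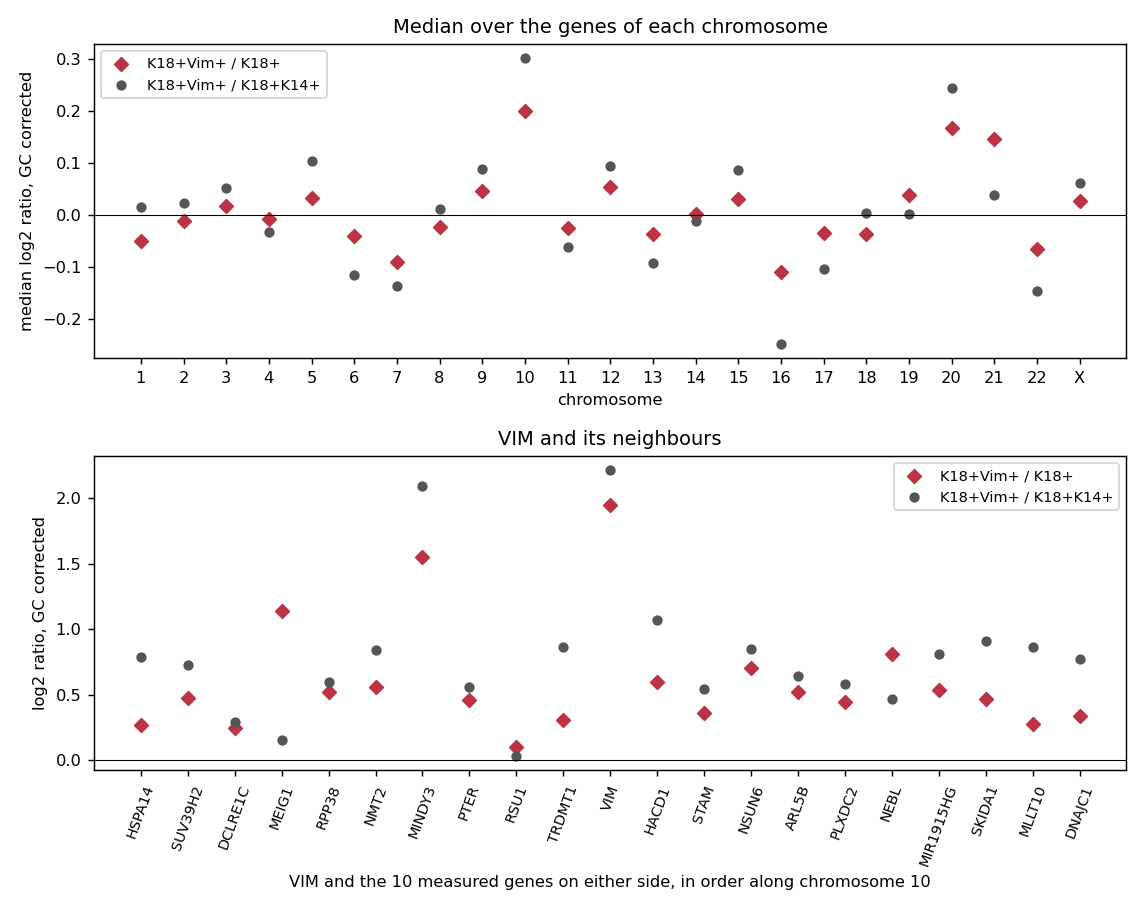
Top, median GC-corrected log2 ratio (y axis) over the genes of each chromosome (x axis) for K18+Vim+ to K18+ and K18+Vim+ to K18+K14+; chromosomes 10 and 20 are highest at 0.20 and 0.17 to K18+. Bottom, the same ratios for VIM and the 10 measured genes on either side of it in chromosome order; all 20 neighbours are above 0, and VIM is the highest.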

How the data were processed

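RNA from 3 sorted HCC70 populations, 1 library each, was analysed. The deposited values are FPKM per Entrez Gene ID, made by the authors; the submitters' processing notes name TopHat2, an aligner, and the build GRCh37. Quantifier, annotation and sequencing batch: not given in the sources used here. Depth is unknown. Per the labels, K18+ and K18+Vim+ have an identical index and so could not share a lane. A floor of 0.1 FPKM is visible. Of 18807 rows, 5 with a repeated ID were dropped (the higher mean was kept), and 18739 of 18802 IDs matched a symbol.

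Genes averaging 1 FPKM or more in HCC70 were taken as log2(FPKM + 1). With 1 library per population no test was run. Transcript GC content came from GENCODE 29 coding transcripts and was corrected by the median of 40 bins, and gene order from RefSeq GRCh38.p14, with no coordinates used. Python 3.11.15, pandas 2.3.3 and numpy 2.4.6 were used, and counting and correction were tested on simulated data.

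The members, the 35 gene lists and the alternatives were chosen with earlier results of these data known. Named were the sort antigens, the 15 largest ratios per direction above or below both libraries, 8 per direction where K18+ stood alone, 6 by FPKM difference, up to 5 per list and the genes nearest the threshold. Subgroups of lists and other genes given as examples, GC content, metallothioneins, humanin-like genes and chromosome neighbours were chosen after values were seen. Of 15 mitochondrially encoded genes none was matched in the table. Some genes are not reported here.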

Additional observations from a re-analysis of the deposited data

How the results depend on the processing

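Counts are given as higher, lower, above both and below both, which were 206, 426, 134 and 142 genes. A pseudocount of 0.1 gave 325, 782, 206 and 299, and a pseudocount of 5 gave 76, 108, 49 and 34. A minimum mean of 5 FPKM gave 109, 295, 67 and 94, and no filter 234, 449, 159 and 142. Quantile normalization gave 316, 229, 169 and 121, centring on the median 339, 218, 172 and 109, and GC correction, chosen after seeing the data, 283, 161, 157 and 108. A 4-fold threshold gave 14, 26, 7 and 10. Of the 426 lower genes 148 kept 2-fold after GC correction, and of the 206 higher genes 174. Under these settings none of the 252 named genes changed direction while past the threshold. A change of pseudocount, filter or threshold cannot reverse the direction of a ratio. For those settings this outcome was fixed in advance and is no check of the named genes. Centring moved every ratio by the median of -0.18, and the medians of the 5 GC groups were -0.46 to 0.14. Such shifts are too small to carry a gene from past 2-fold one way to past 2-fold the other way. Centring and GC correction are therefore no check either. Quantile normalization moved the median of all genes to -0.02, also a small shift. Relative to all genes, the medians of the matrix metalloproteinase list (0.21) and the NF-kappaB list (0.10) became -0.09 and -0.12 after GC correction. No paired analysis was possible because each population has 1 HCC70 library. For the same reason no library could be left out. Depth is unknown, so the counting error of low values cannot be given.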
